A study of Mus musculus with 31 samples.

Results

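Regulatory T cells (Tregs) from spleens of RFP-FoxP3 reporter mice were compared 168 h after 1 of 2 injections: the mouse IL-2 and CD25 fusion protein (mIL-2/CD25, called FP, 20 µg) or PBS (100 µL). The libraries were those labelled FP 1 to 4 and PBS 1, 2 and 4 at that time, 7 of the 31 in the series, and chromatin accessibility was read by ATAC-seq, in which a transposase cuts open DNA. All mice were of the C57BL/6 strain, and both groups carried the reporter. Their age and sex are not stated in the labels, and the protocol text gives 0.75 h for every sample, so the time of 168 h rests on the sample titles. The other 24 libraries covered FP and PBS at 0.75, 16 and 72 h and mouse IL-2 alone (IL2, 5 µg) at 0.75 and 16 h. The labels do not tie libraries to separate animals, so every p measures the spread between these libraries only.

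IL-2 binds a receptor of which CD25 (Il2ra) is the high-affinity chain, and Tregs keep that chain on their surface. Receptor engagement activates the kinases JAK1 and JAK3 and the transcription factor STAT5, which binds paired TTC and GAA half-sites and is needed to maintain Foxp3 and Treg numbers. A fusion of IL-2 with its own receptor chain was made to act longer than free IL-2, and the later times ask what remains of the early chromatin response.

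Of 16 followed peaks at genes of the early response, 13 had risen with IL2 at 0.75 h (adjusted p under 0.05). At 168 h 15 of the 16 read at levels that overlapped between FP and PBS. Most peaks of any kind overlapped as well. Over all tested peaks, 3.63% had every FP library above every PBS library and 2.69% every FP library below. The intronic Gad2 peak, which had opened with FP at 16 h, differed by -0.05 ± 0.44 (log2 fold change of FP over PBS, with SE) at 168 h, against 3.38 ± 0.29 at 16 h. The Bcl2 intron peak, at a gene for a survival factor, was at 0.59 ± 0.32, and the Cdk6 intron peak, at a gene for a kinase of the G1 phase, was at 0.02 ± 0.27. Across all 102580 peaks tested, 0 passed an adjusted p of 0.05 (0.0%) in edgeR's quasi-likelihood test, and the smallest adjusted p was 0.899. At an unadjusted p under 0.05 there were 4658 peaks (4.54%), 2129 higher with FP (2.08%) and 2529 lower (2.47%). DESeq2 called 11 peaks at an adjusted p under 0.05 and limma voom with quality weights 0. Voom put far more peaks, 24449, at an unadjusted p under 0.05, and its smallest adjusted p was 0.0677. Leaving out 1 library kept edgeR's count of adjusted calls at 0. Its count at an unadjusted p under 0.05 moved to 15107 without FP 2 and to 12450 without PBS 4. Without any other library it was between 2204 and 2698. On simulated counts with the spread of these libraries (100883 peaks), the same test recovered 44 of 100 changes of 4-fold and 1 of 100 changes of 2-fold. It called 8 unchanged peaks. Differences of 2-fold were thus mostly not detectable with 4 and 3 libraries. The changed peaks all had a mean log2 CPM above 1, and the simulation left out the 2 sets of libraries described below.

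The 7 libraries fell into 2 sets by their total count over all peaks. FP 1, FP 3, FP 4 and PBS 4 held 32.8 to 37.7 M counts, whereas PBS 1, PBS 2 and FP 2 held 7.39 to 13.4 M. The most abundant peak, at the predicted gene Gm10222 on chromosome 1 (24611561-24615794, GRCm38), took at most 20.0% of the counts in the set of high total and 30.0% to 31.6% in the other. Log2 counts correlated at 0.919 to 0.935 between libraries within the set of high total, at 0.806 to 0.840 within the set of low total and at 0.701 to 0.819 between the sets. The first principal component held 52.0% of the variance and separated the sets, not the agents. Totals averaged 29.3 ± 11.5 M with FP (SD, n = 4) and 18.2 ± 13.8 M with PBS (n = 3), a difference that an exact two-sided permutation test over libraries did not separate (p = 0.343, adjusted over 4 library values 0.457, smallest possible p 0.0571). No correlation of a library value with the total is given, because the totals lie in 2 clusters of fewer than 6 libraries. Per peak, in a fit with the log2 total as a term, 6657 peaks rose and 12470 fell with the total at an adjusted p under 0.05, and 10 differed with the agent. FP differences are therefore also given within each set: 3 FP libraries against PBS 4 in the high set, and FP 2 against PBS 1 and 2 in the low set, with no test.

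**Figure D1:**
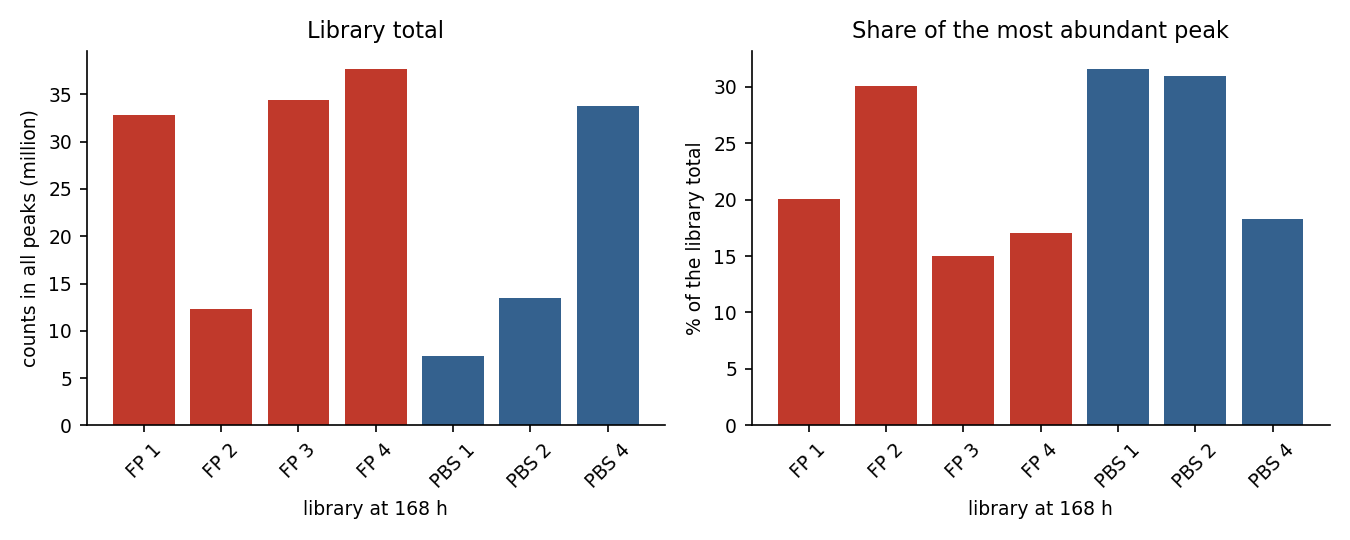
Bars give, for each of the 7 libraries at 168 h, the total count in all peaks in units of 1 M (left) and the percent of that total in the most abundant peak (right); red bars are FP and blue bars PBS. FP 2, PBS 1 and PBS 2 have the 3 lowest totals and the 3 highest shares.

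Treg marker genes held open promoters in both groups. Levels in CPM (counts relative to the TMM-scaled library total) over promoter peaks of Foxp3, the lineage factor, ran from 12.8 to 21.4 with FP and from 10.6 to 16.5 with PBS. Those of Il2ra, the CD25 gene, ran from 8.56 to 19.1 and from 8.48 to 18.4, and those of Ctla4, an inhibitory receptor, from 19.9 to 38.3 and from 22.5 to 40.3. Ikzf2, which encodes Helios, had 18.2 to 28.7 CPM with FP and 19.6 to 28.4 with PBS. Cd3e, a subunit of the T cell receptor complex, had 5.40 to 18.5 with FP and 7.55 to 10.6 with PBS. FP and PBS overlapped at each of these 5 genes. The B cell gene Ms4a1, the NK cell gene Ncr1 and the myeloid gene Csf1r had no peak named for them in the table used here. Other markers did not follow this pattern. The CD8 T cell gene Cd8b1 had 16 promoter peaks, which summed to 70.4 to 93.6 CPM with FP and 65.0 to 100 with PBS. The erythroid gene Gata1 had 10, which summed to 7.26 to 29.9 and 14.7 to 34.8. Foxp3 had only 1 promoter peak, so these sums do not compare with its level. The 44 CD8 T cell peaks lie in 23 regions of overlapping peaks and the 35 erythroid peaks in 12, so sums can count the same reads repeatedly. The 1 peak of Cd8a, another CD8 T cell gene, held 0.0981 to 1.77 CPM with FP and 1.39 to 3.57 with PBS. All peaks of the NK cell gene Klrb1c summed to 55.3 to 125 and 66.0 to 130. Promoter peaks of the T cell gene Cd4 held only 0.651 to 2.89 and 0.743 to 2.17 CPM. Summed over their tested peaks, B cell markers ran from 37.7 to 77.7 CPM with FP and from 49.4 to 72.1 with PBS, CD8 T cell markers from 156 to 176 and from 156 to 193, and NK cell markers from 95.4 to 143 and from 102 to 142. Myeloid markers ran from 26.9 to 32.9 and from 21.9 to 30.9, and erythroid markers from 66.9 to 124 and from 77.4 to 171. Of 14 tested B cell peaks 0 were higher and 2 lower at an unadjusted p under 0.05, of 43 CD8 T cell peaks 1 and 0, and of 22 NK cell, 12 myeloid, 33 erythroid and 50 sex chromosome peaks 0 and 0 (2.08% and 2.47% of all peaks). With the set by total as a block, 6 of the 12 myeloid peaks were higher and 1 lower at an unadjusted p under 0.05. Over all peaks in that fit 3.0% were higher and 2.89% lower. The 13 myeloid peaks, tested or not, lie in 7 regions of overlapping peaks, so they are not all separate sites. Only 4 of the 10 myeloid genes have a peak. The median log2 fold change of the tested myeloid peaks over all 7 libraries was 0.53, with 0.78 and 0.55 within the sets. All 5 sums overlapped between the agents, and their part in the results below was not tested. Accessible chromatin in a mixed cell sample does not tell fewer cells of a type from less accessibility per cell.

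The peaks of smallest unadjusted p with groups that do not overlap were taken as the leading ones, and none passed the adjusted threshold. The background for such a pattern was 3725 peaks with every FP library above every PBS library (3.63%) and 2762 with every FP library below (2.69%). Among the leading peaks outside repeats, 1 peak at Rad54b, which encodes a DNA helicase of recombination repair, had the largest rise with FP by log2 fold change. It lies on chromosome 4 (11609866-11610558, GRCm38), is labelled promoter in the deposited annotation and overlaps an exon 30201 bp from the nearest protein-coding start site in GENCODE M21. It read 15.7, 11.7, 11.9 and 12.6 CPM in FP 1 to 4 and 5.35, 5.32 and 5.19 in PBS 1, 2 and 4. The PBS libraries of both sets were nearly alike, and every FP library lay above them. The log2 fold change was 1.30 ± 0.23 (95% interval 0.80 to 1.80, unadjusted p = 0.000134, adjusted p = 0.899, edgeR), with 1.34 within the high set and 1.12 within the low set. DESeq2, on the same counts, gave an adjusted p of 0.00247. An intronic peak named for the predicted gene Gm17266 read 23.3, 16.5, 19.2 and 18.9 CPM with FP and 7.14, 10.3 and 9.48 with PBS, a log2 fold change of 1.11 ± 0.21 (adjusted p = 0.899 in edgeR, 0.0212 in DESeq2).

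Lower with FP were peaks at Camk4, Mrpl32 and Phactr2. Camk4 encodes a calcium and calmodulin-dependent kinase of T cells, and its intronic peak read 0.821, 1.77, 1.70 and 1.28 CPM in FP 1 to 4 and 5.20, 5.86 and 4.48 in the PBS libraries. The log2 fold change was -1.91 ± 0.37, with -1.82 and -1.60 within the high and low sets, and the adjusted p was 0.899 in edgeR and 0.0238 in DESeq2. An intergenic peak 8190 bp from a protein-coding start, assigned to Mrpl32, which encodes a protein of the mitochondrial ribosome, read 1.34, 1.30, 1.43 and 2.38 CPM with FP and 5.95, 4.78 and 5.84 with PBS. Its log2 fold change was -1.76 ± 0.35, at an adjusted p of 0.899 in edgeR and 0.0352 in DESeq2. The Phactr2 intron peak, at a gene for a regulator of phosphatase 1 and actin, read 1.30 to 2.50 CPM with FP and 4.76 to 7.25 with PBS, and the Gm13217 peak had a log2 fold change of -0.94 ± 0.22. At Gm48040 the PBS libraries themselves spread from 2.04 to 9.22 CPM, against 0.760 to 1.35 with FP, and the difference was -0.90 within the high set and -2.52 within the low set. The remaining DESeq2 calls were Nmnat2, Drg1, 1 Gm21738 peak and 4 peaks at Pisd-ps1, all higher with FP. In DESeq2 9 of the 11 calls were higher, but the 4 Pisd-ps1 peaks are overlapping windows. The 11 calls are therefore not all separate sites. Of the Drg1 peak 95.98% is masked as repeat in RefSeq, and of this Gm21738 peak 79.95%.

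**Figure D2:**
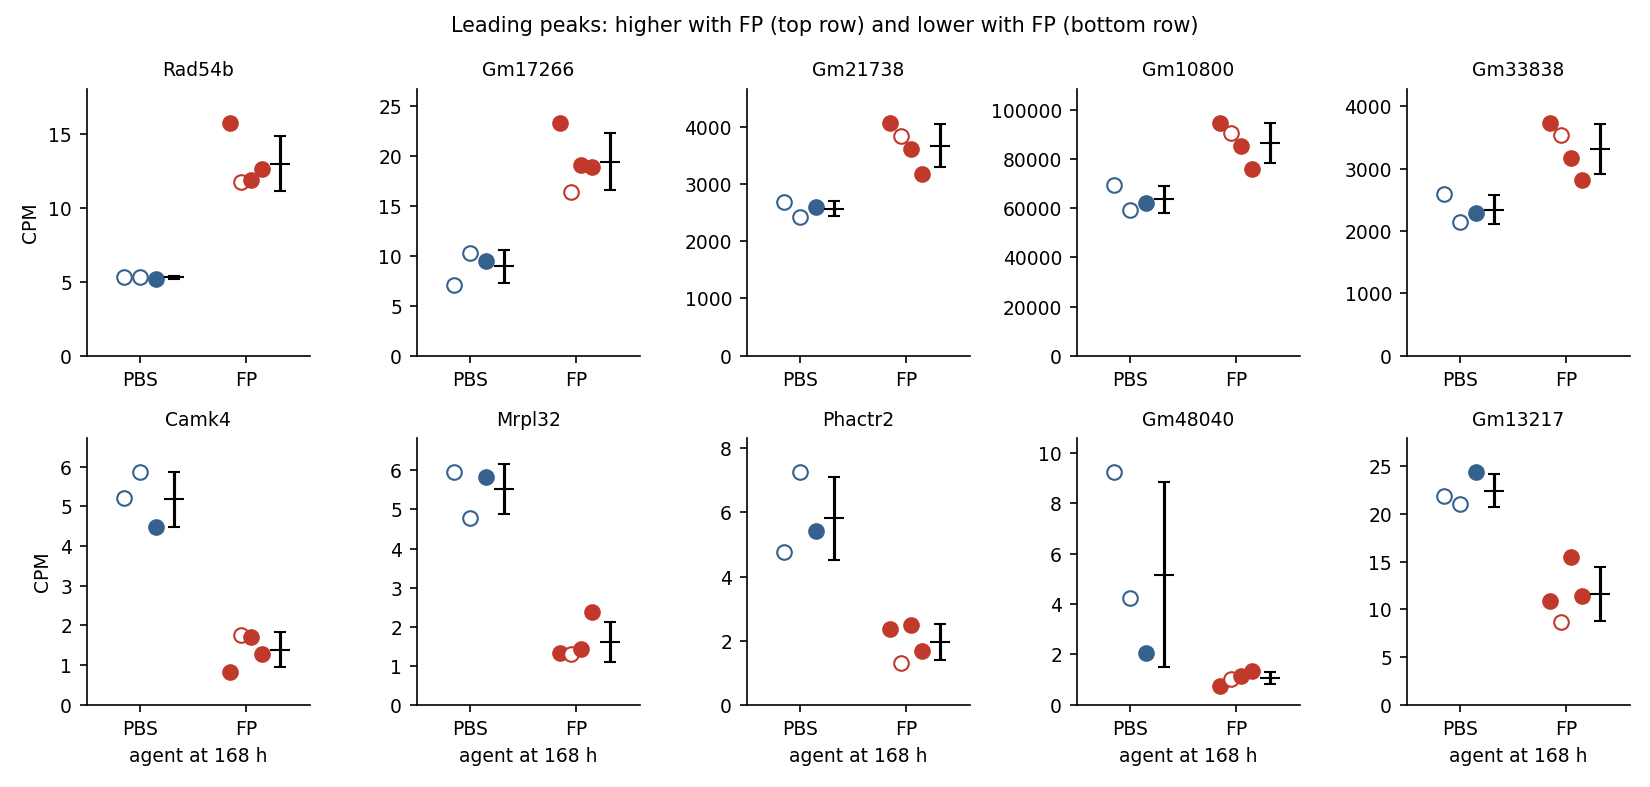
Each panel plots 1 leading peak in CPM (y axis from 0) for the 3 PBS and 4 FP libraries; filled points are libraries of high total, open points of low total, and bars give the mean and SD. In all 10 panels the agents do not overlap, which is how the peaks were chosen, and Rad54b has the tightest PBS values (5.19 to 5.35).

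The other leading peaks higher with FP lay in repeats. Gm21738 on chromosome 14, Gm10800 on chromosome 2 and Gm33838 on chromosome 9 hold very abundant peaks of which 83.6%, 81.6% and 82.6% is masked as repeat in RefSeq. The longest runs of letters shared between pairs of these peaks (GRCm38, plus strand) show how alike the copies are.
Gm21738 and Gm10800, chr14:19418820-19418884: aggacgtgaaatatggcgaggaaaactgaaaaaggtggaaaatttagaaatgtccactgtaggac
Gm21738 and Gm33838, chr14:19418832-19418874: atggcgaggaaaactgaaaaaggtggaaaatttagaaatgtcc
Gm10800 and Gm33838, chr2:98666665-98666779: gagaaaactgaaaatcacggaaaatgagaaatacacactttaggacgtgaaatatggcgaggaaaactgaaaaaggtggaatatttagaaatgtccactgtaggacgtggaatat
These letters are of the kind found in the major satellite that surrounds mouse centromeres, and the labels and headers do not say how reads with several matches were treated. The Gm21738 peak read 4056, 3826, 3614 and 3179 CPM in FP 1 to 4 and 2684, 2425 and 2592 in PBS 1, 2 and 4, a log2 fold change of 0.52 ± 0.08 (adjusted p = 0.899). Gm10800 read 94543, 90647, 85236 and 76043 CPM with FP and 69543, 59189 and 62011 with PBS (0.45 ± 0.07), and Gm33838 read 3725, 3538, 3164 and 2823 against 2594, 2142 and 2286 (0.50 ± 0.10). The differences were 0.47 and 0.58, 0.45 and 0.50, and 0.49 and 0.59 within the high and low sets. Of 975 tested peaks with a repeat share of at least 80%, 11 had a mean log2 CPM of at least 7, a choice made after their values were seen. All 11 read higher with FP without overlap, at 0.45 to 0.52, and 7 of them are overlapping windows at Gm21738. Over the 975 peaks the median was -0.17, with 27 higher and 15 lower at an unadjusted p under 0.05. With the set by total as a block, a choice made after seeing the data, edgeR called 7 peaks (0.00682%), all in these repeats and higher with FP, at log2 fold changes of 0.48 to 0.54.

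The loci of the early response were followed through peaks chosen at other times, on libraries that do not enter the comparison at 168 h. Windows around matches to the STAT motif TTCNNNGAA (in capitals, both strands read alike) are shown for 4 of these peaks, picked for holding the motif, from GRCm38, plus strand. The Wwp1, Ptpn1, Nfkb1 and Nt5e peaks hold no match.
Gad2, chr2:22680112-22680212: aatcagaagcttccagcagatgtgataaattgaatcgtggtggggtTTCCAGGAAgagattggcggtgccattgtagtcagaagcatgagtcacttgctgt
Bcl2, chr1:106607160-106607260: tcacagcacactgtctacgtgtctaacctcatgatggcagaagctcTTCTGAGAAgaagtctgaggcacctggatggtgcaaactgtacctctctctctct
Cdk6, chr5:3478014-3478114: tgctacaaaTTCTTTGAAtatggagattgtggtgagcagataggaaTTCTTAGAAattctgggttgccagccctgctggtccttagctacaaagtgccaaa
Itga4, chr2:79270163-79270263: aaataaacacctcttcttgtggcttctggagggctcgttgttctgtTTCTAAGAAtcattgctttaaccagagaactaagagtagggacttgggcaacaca
The peaks hold 1, 2, 3 and 1 such matches, respectively, and 13.3% of all peaks hold at least 1.

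Gad2 encodes a glutamate decarboxylase, and its peak lies in an intron (chromosome 2, 22679731-22680633). In FP 1 to 4 it read 4.63, 3.89, 1.49 and 2.52 CPM and in PBS 1, 2 and 4 it read 1.96, 3.85 and 3.66 (here and for the other early loci scaled over all 31 libraries). The agents overlapped fully, with means of 3.13 ± 1.40 and 3.15 ± 1.04 CPM. At 16 h the same peak stood at 28.8 ± 5.84 CPM with FP and 2.79 ± 0.85 with PBS (SD, n = 3 each). The FP effect was lower at 168 h than at 16 h by a log2 difference of -3.46 ± 0.46 (95% interval -4.38 to -2.53, adjusted p = 0.000393, edgeR). The Gad2, Wwp1 and Itga4 peaks were chosen by their p with FP at 16 h, so the choice itself favours a lower effect at 168 h in these differences; all 3 had also risen with IL2 at 0.75 h. Wwp1, a ubiquitin ligase gene, was read at an intronic peak on chromosome 4 (19686013-19686543), with 2.68, 3.03, 1.98 and 2.66 CPM with FP and 1.82, 2.25 and 3.79 with PBS at 168 h. At 16 h it stood at 16.0 ± 1.91 and 1.85 ± 0.73 CPM, and the difference of the effects was -3.17 ± 0.49 (adjusted p = 0.00506, edgeR). Without PBS 4 that difference was -2.79, at an adjusted p of 0.0588.

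The Bcl2 peak on chromosome 1 (106606895-106607640) is labelled promoter in the deposited annotation but lies in an intron, 105539 bp from the nearest protein-coding start. It read 7.58, 4.58, 4.86 and 5.11 CPM in FP 1 to 4 and 2.79, 4.65 and 3.42 in PBS 1, 2 and 4. FP 2 fell just below PBS 2, and the other FP libraries read above all 3 PBS libraries. Group means were 5.53 ± 1.38 and 3.62 ± 0.94 CPM, against 19.5 ± 4.40 and 5.01 ± 1.07 at 16 h and 10.6 ± 3.58 and 4.68 ± 2.31 at 72 h. The log2 fold change at 168 h was 0.59 ± 0.32 (95% interval -0.12 to 1.29, adjusted p = 0.899), with 0.72 and 0.36 within the high and low sets. Its difference from the effect at 16 h was -1.35 ± 0.41, at an adjusted p of 0.612.

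At Cdk6 (chromosome 5, 3477644-3478642, intron) the FP libraries read 7.85, 4.93, 7.74 and 7.46 CPM and the PBS libraries 6.57, 8.28 and 5.70. Both means were near 7 (6.99 ± 1.39 and 6.85 ± 1.31), where FP had stood at 25.9 ± 5.89 CPM at 16 h. The difference from the 16 h effect was -1.75 ± 0.37 (adjusted p = 0.0771). Itga4, the gene of the α4 integrin chain, read 6.08, 2.16, 5.19 and 2.35 CPM with FP and 5.03, 7.19 and 5.30 with PBS. FP 2 and FP 4 were the lowest, and the log2 fold change of -0.58 ± 0.40 differed from that at 16 h by -2.18 ± 0.44 (adjusted p = 0.0685). Ptpn1 encodes a phosphatase that acts on JAK kinases, and its intergenic peak read 1.45, 1.12, 0.90 and 1.09 CPM with FP and 1.68, 3.99 and 1.70 with PBS. All 4 FP libraries were below the 3 PBS libraries, at -1.13 ± 0.47 (unadjusted p = 0.0349, adjusted p = 0.899), where the effect at 16 h had been 1.74 ± 0.45 and the difference was -2.85 ± 0.60 (adjusted p = 0.0737). Nfkb1, which encodes an NF-kB subunit, read 1.90 to 5.12 CPM with FP and 2.93 to 6.30 with PBS (-0.17 ± 0.39).

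At the other followed peaks the agents overlapped at 168 h, and those of Cish, Foxp3 and Il2ra had passed the adjusted threshold in no earlier comparison. Cish, a feedback inhibitor of cytokine receptors, read 5.02 to 10.0 CPM with FP and 3.63 to 5.88 with PBS (0.40 ± 0.32). The Foxp3 intron peak, 1831 bp from the start site and with 3 STAT motif matches, read 6.92 to 16.5 CPM with FP and 7.99 to 14.6 with PBS (0.29 ± 0.31). Both the lowest FP value (FP 2) and the lowest PBS values (PBS 1 and 2) came from the set of low total, and the difference was 0.01 within the high set. An Il2ra intron peak read 0.605 to 3.54 CPM with FP and 0.871 to 3.87 with PBS (-0.10 ± 0.60). Lta, the lymphotoxin alpha gene, read 2.42 to 6.34 and 1.54 to 5.46 CPM (0.44 ± 0.44). The peaks of Ikzf2, Nrp1, Nt5e (CD73), Lef1 and Ccr7 held 0 to 3.63 CPM in single libraries, and their log2 fold changes of -0.12 to 0.61 had SEs of 0.50 to 0.85.

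**Figure D3:**
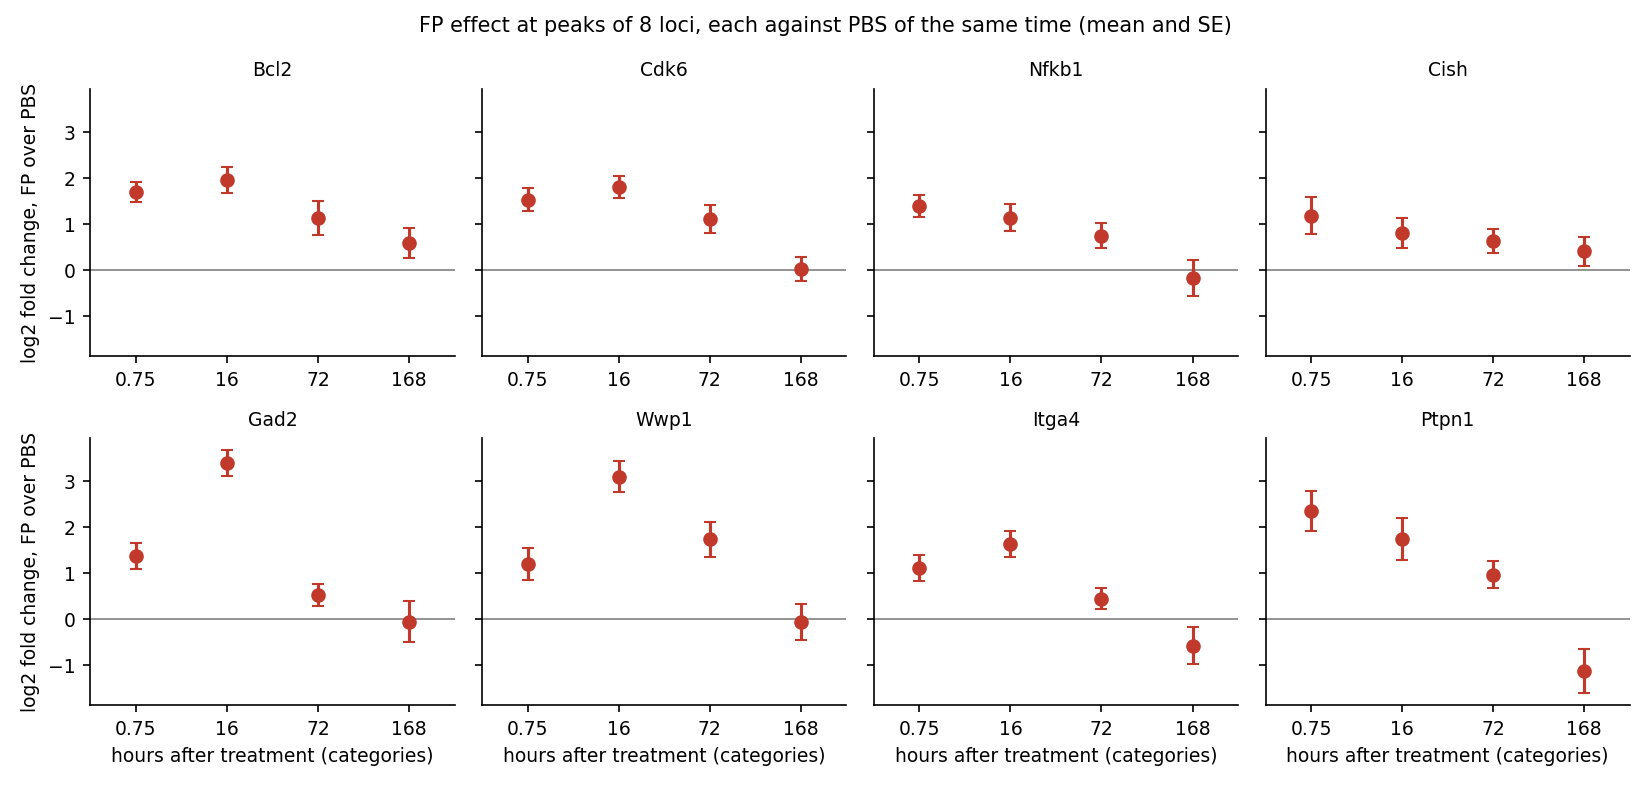
Points give the log2 fold change of FP over the PBS libraries of the same time, with SE, at peaks of 8 early loci; times are shown as categories, not to scale. All 8 loci lie above 0 at 0.75, 16 and 72 h, and at 168 h they lie between -1.13 (Ptpn1) and 0.59 (Bcl2). The Gad2, Wwp1 and Itga4 peaks were chosen by their p with FP at 16 h, so those points entered the choice. The other peaks were chosen with IL2 at 0.75 h, against PBS libraries that their FP points at 0.75 h share.

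The early response was also followed as a whole. IL2 raised 490 peaks at 0.75 h (0.488% of those tested) and FP raised 115 at 16 h (0.114%), at an adjusted p under 0.05, where FP at 0.75 h raised 2 (0.00199%). Of the IL2 set, 85.3% hold the STAT motif, and of the FP set 93.9%, against 13.3% of all peaks. At 168 h 0 of the 490 passed, with 5 higher and 13 lower at an unadjusted p under 0.05 (2.08% and 2.47% of all peaks), and the median log2 fold change was -0.01 (quartiles -0.30 and 0.25), where all tested peaks had -0.01. The median level of these peaks was 4.05, 3.63, 3.84 and 3.26 CPM in FP 1 to 4 and 3.12, 4.16 and 3.96 in PBS 1, 2 and 4, so the agents overlapped. The same peaks had stood at a median of 1.78 with IL2 at 0.75 h (the comparison that chose them). With FP they had stood at 1.10 at 0.75 h, at 1.14 at 16 h and at 0.43 at 72 h. The FP value at 0.75 h rests on the same PBS libraries as the choice, so it is not independent of it. Of the 115 peaks, 0 passed at 168 h, 3 were higher and 3 lower at an unadjusted p under 0.05, and the median was -0.05. Within the high set the medians were -0.15 and -0.21 for the 2 lists of peaks, beside -0.02 for all peaks, and with the set by total as a block 12 of the 490 were higher and 30 lower at an unadjusted p under 0.05 (background 3.0% and 2.89%).

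**Figure D4:**
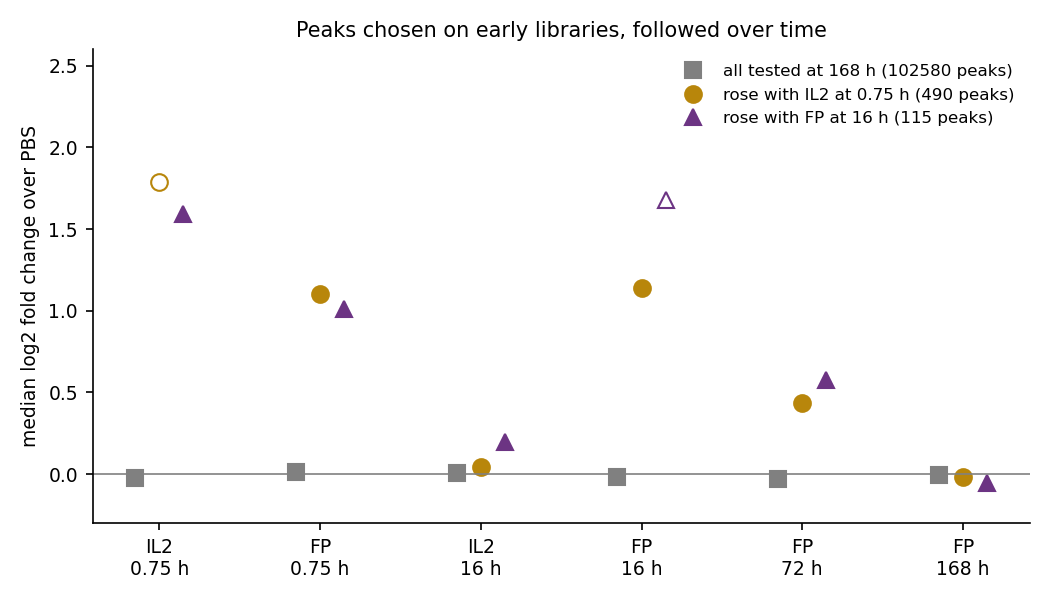
Symbols give the median log2 fold change over PBS of the same time for all tested peaks (squares), for peaks that rose with IL2 at 0.75 h (circles) and for peaks that rose with FP at 16 h (triangles); open symbols mark the comparison that chose the peaks. FP at 0.75 h shares its PBS libraries with the choice of the circles, and IL2 at 16 h with that of the triangles. Medians of both lists lie above 1 at 0.75 h with FP, between 0.43 and 0.58 at 72 h and at -0.01 and -0.05 at 168 h.

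The change of the FP effect between times was tested in 1 fit of all 31 libraries, each effect against the PBS libraries of its own time. Against 16 h, the effect at 168 h was lower at 21 of 104520 peaks (0.0201%) and higher at 1 (0.000957%), at an adjusted p under 0.05. Leaving out FP 2 raised this count of 22 to 48, and leaving out PBS 4 lowered it to 12. Of the 21, 13 belong to the 490 peaks chosen with IL2 at 0.75 h, from libraries that enter neither of these effects, and the median difference over the 490 was -1.21, beside 0.02 for all peaks. At an unadjusted p under 0.05, 273 of the 490 had a lower effect at 168 h, where 2.61% of all peaks did. Besides Gad2 and Wwp1, the 21 include intronic peaks of Mbd5, Nfia, Immp2l and Crim1, an intergenic peak of Cd2, an adhesion receptor of T cells, and an intronic peak of Nt5e other than the one above. At Cd2 the effect was 2.88 at 16 h and -0.17 ± 0.53 at 168 h, and at Mbd5 1.24 and -0.13 ± 0.16. Of the 21, 9 also read below PBS at 168 h at an unadjusted p under 0.05, among them Enox2 (-1.91 ± 0.56) and St7 (-1.32 ± 0.37), though these values enter the difference that selected the peaks. The 1 peak with a higher effect at 168 h, at Gm23827, read 2.57 to 3.68 CPM with FP and 0.297 to 1.62 with PBS (1.44 ± 0.50). An intergenic peak assigned to Gprin3 was the 1 peak called against 0.75 h (0.000957%), with an effect of 1.05 then and -0.73 ± 0.22 at 168 h, where it read 10.7 to 16.0 CPM with FP and 17.8 to 27.4 with PBS; this call was lost without FP 1 or FP 4 and the count became 3 without FP 2 or PBS 1.

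Against 72 h no peak was called (0 of 104520, 0.0%, smallest adjusted p 1.00), and 1522 had an unadjusted p under 0.05. In the list of 490, 75 peaks had a lower effect at 168 h than at 72 h at an unadjusted p under 0.05 and 0 a higher one, where 0.772% of all peaks were lower; the median difference was -0.50. In the list of 115 the counts were 31 and 1, and the median difference was -0.62. Across peaks, the log2 fold changes at 168 h correlated with those of FP at 72 h at 0.465, with FP at 16 h at 0.142 and with FP at 0.75 h at -0.09, and with those of IL2 at 16 h at 0.251 and at 0.75 h at 0.106, over 59712 to 59753 peaks that are not independent. These pairs share no library. A gradient with GC content was present at both late times. Peaks with a GC content below 42.7% had a median FP log2 fold change of -0.24 at 72 h and -0.25 at 168 h. Those above 57.3% had 0.07 and 0.14. The part of this gradient in the correlation was not tested.

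Gene lists were described by their peaks, 0 of which passed the adjusted threshold in any list. At an unadjusted p under 0.05, 2.08% of all peaks were higher and 2.47% lower, or 3.0% and 2.89% with the set by total as a block, and the balance of several lists turned between these fits. Of 228 peaks at genes of the IL-2 and STAT5 response, 5 were higher and 1 lower at an unadjusted p under 0.05, with a median of 0.19 (all peaks -0.01) that became 0.00 within the high set and -0.06 within the low set. With the block 4 were higher and 8 lower. The 5 were at Socs3, an inhibitor of cytokine signalling, Ccnd2, a D cyclin, Stat5b itself and 2 overlapping windows of Jak1. At Stat5b an exonic peak read 3.32, 3.91, 5.21 and 7.16 CPM in FP 1 to 4 and 3.27, 1.77 and 2.06 in PBS 1, 2 and 4 (1.08 ± 0.39), so the agents did not overlap but nearly met. The 1 lower peak was a second Bcl2 intron peak, 151644 bp from the nearest coding start, at 0.973, 1.77, 2.44 and 1.81 CPM with FP and 5.20, 2.70 and 4.40 with PBS (-1.22 ± 0.42). Bcl2 thus held peaks of either sign.

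Of 227 peaks of Treg identity genes 4 were higher and 3 lower (median 0.07, within the sets -0.07 and -0.11), and with the block 2 and 14. Entpd1, the gene of the ectoenzyme CD39, gave the smallest p of the list at an intronic peak with 5.02, 3.54, 5.21 and 4.12 CPM in FP 1 to 4 and 2.08, 2.62 and 1.90 in PBS (1.03 ± 0.33), while another Entpd1 peak read -1.35 ± 0.56. Of 232 peaks of effector Treg genes 17 were higher and 1 lower (median 0.11, within the sets 0.10 and -0.01), but 10 of the 17 are overlapping promoter windows of Tnfrsf9, the gene of the costimulatory receptor 4-1BB. With the block 14 were higher and 13 lower. The Tnfrsf9 window of smallest p read 7.36, 4.93, 7.97 and 7.55 CPM with FP and 2.53, 2.47 and 4.81 with PBS (1.06 ± 0.34), with PBS 4, the PBS library of high total, close to FP 2. It is the only one of the 10 windows whose groups do not overlap. At another window PBS 4 read 5.73 CPM, above FP 2 at 5.12. Prdm1, which encodes Blimp-1 of effector Tregs, read 14.2, 10.6, 9.49 and 11.5 CPM with FP and 5.20, 8.48 and 7.39 with PBS at an intron peak (0.69 ± 0.26), with 0.64 and 0.67 within the sets. Gzmb, the granzyme B gene, read 2.23 to 4.36 and 1.49 to 2.16 CPM (0.97 ± 0.39). The Icos peak that was lower read 0.700 to 2.18 CPM with FP and 1.85 to 3.57 with PBS.

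Of 315 peaks of genes of resting and lymphoid-homing T cells 8 were higher and 2 lower (median 0.06, within the sets -0.06 and -0.19), and with the block 6 and 15. Of 335 peaks of T cell receptor signalling genes 14 were higher and 5 lower (median 0.13, within the sets -0.07 and -0.21), and with the block 5 and 11. Of 169 peaks of NF-kB and TNF receptor genes, where the same 10 Tnfrsf9 windows count again, 14 were higher and 1 lower (median 0.32, within the sets 0.03 and 0.04), and with the block 11 and 4. In T cell receptor signalling, 6 of the 14 were overlapping Nfatc2 promoter windows and 4 were Cd247 promoter windows, and the 5 lower included 4 peaks of Themis, a regulator of T cell receptor signal strength. The Themis intron peak of smallest p read 2.68, 4.37, 2.84 and 2.80 CPM in FP 1 to 4 and 4.61, 8.02 and 8.09 in PBS (-1.15 ± 0.33), so the highest FP library lay just below the lowest PBS library. Of 112 peaks of helper lineage and cytokine genes 2 were higher and 5 lower (median 0.06, within the sets -0.07 and -0.30), with the block 1 and 9, and 4 of the 5 were at Gata3, the Th2 factor. The Gata3 peak of smallest p held 0 to 0.133 CPM with FP and 0.463 to 1.11 with PBS. Cell cycle genes had 2 higher and 0 lower of 98, led by the promoter of the CDK inhibitor Cdkn2c at 38.3, 26.6, 35.7 and 35.5 CPM with FP and 15.6, 23.7 and 25.1 with PBS (0.66 ± 0.21). Chemokine receptor and trafficking genes had 5 and 1 of 170, AP-1 and immediate early genes 2 and 0 of 91, mTORC1 and MYC metabolism 4 and 0 of 90, interferon response 4 and 1 of 59, and the constitutive genes 0 and 0 of 47. With the block these 5 lists had 7 and 5, 2 and 2, 8 and 1, 3 and 3, and 1 and 0, and the cell cycle list 3 and 0. The mTORC1 and MYC median was 0.24, with 0.18 within each set. The interferon median of 0.46 became 0.18 within the high set and 0.06 within the low set. The constitutive genes had a median of 0.26, above that of 10 of the 12 lists of T cell and response genes.

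Where a peak lay went with the sign of its difference in the pooled comparison. Promoter peaks had a median log2 fold change of 0.13 over 29220 peaks, with 963 higher and 309 lower at an unadjusted p under 0.05. Intergenic peaks had -0.18 over 31156, with 406 higher and 1159 lower, and introns had -0.06. Within the high set the medians of promoter and intergenic peaks were 0.03 and -0.07, and within the low set 0.06 and 0.05. Peaks with a GC content above 57.3% had a median of 0.14 and those below 42.7% had -0.25. Per library, promoter peaks held 71.1% ± 1.40 of the counts with FP and 70.7% ± 1.18 with PBS (exact permutation p = 0.629, adjusted 0.629), and intergenic peaks 11.0% ± 0.434 and 11.6% ± 0.0965 (exact permutation p = 0.114, adjusted 0.457). Agent and library total are unevenly matched, with 3 of 4 FP libraries but 1 of 3 PBS libraries in the high set.

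**Figure D5:**
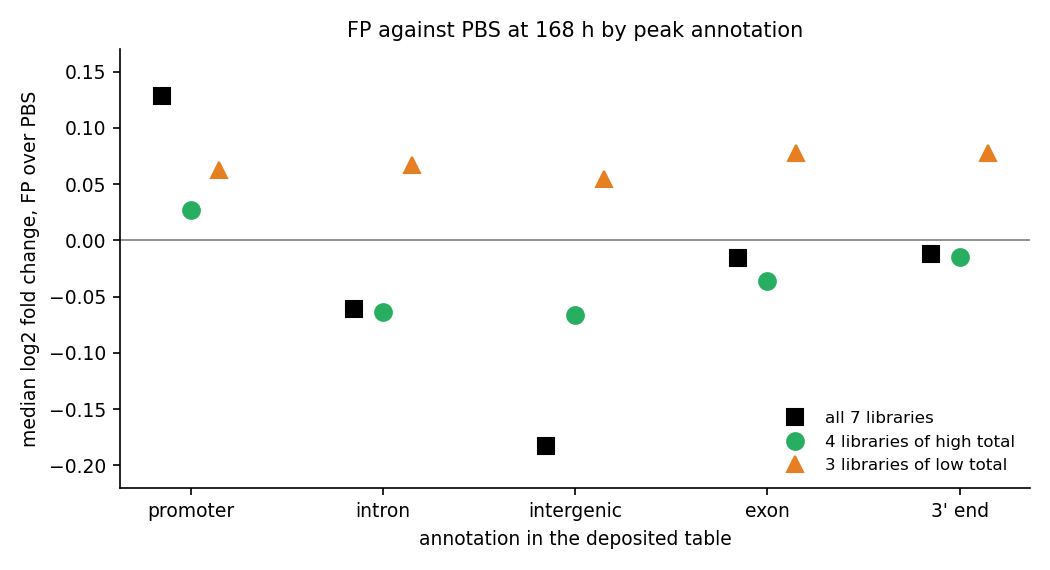
Symbols give the median log2 fold change of FP over PBS at 168 h for peaks of each annotation class in the deposited table, from all 7 libraries (squares), the 4 of high total (circles) and the 3 of low total (triangles). The gap between promoter (0.13) and intergenic (-0.18) peaks over all libraries is wider than within either set (0.03 and -0.07, 0.06 and 0.05).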

How the data were processed

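Per the series design text and the submitters' processing notes, the authors mapped reads to GRCm38 with BWA (bwa-mem), called peaks with MACS2 2.1.2 and kept peaks reproducible between pseudo-replicates. Whole-number counts per peak were deposited for 104979 peaks and 31 libraries; no source names the counting program. Fields were read from the right end of each line, because gene names of 9561 peaks hold commas and shift the first column, recorded as an other unit. The labels mention technical replicates and the 168 h titles 2 runs, which the table does not separate.

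Counts were tested in R 4.3.3 with edgeR 4.0.16 (TMM, filterByExpr with minimum count 10 and total 15, quasi-likelihood F test, Benjamini-Hochberg, threshold 0.05) on the 7 libraries. DESeq2 1.42.0 and limma 3.58.1 were alternatives. Tables and figures used Python 3.11.15. The biological coefficient of variation was 48.0%, with 5 residual degrees of freedom, and chi-square per degree of freedom between libraries of 1 group was 5.10 to 29.2. The test was tested on simulated data, in which 22 of 100 differences of 4-fold between 168 and 16 h were recovered (104296 peaks). Here too the changed peaks had a mean log2 CPM above 1, and the sets by total were left out.

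The libraries, gene lists, peaks to follow and tests were chosen with earlier results of these data known. Named peaks were the leading 5 of each direction by unadjusted p with separated groups and mean log2 CPM of at least 1 (none passed the threshold), for 16 loci the peak of smallest p with IL2 at 0.75 h (Gad2, Wwp1 and Itga4: FP at 16 h), for each list the peak of smallest p, and marker promoters, given as levels. Peaks in other sentences were named after their values were seen. Sequence came from the GRCm38 reference and repeat masking from RefSeq. Replicate numbers 1, 2 and 4 occur in both groups, but deviations from the group means correlated at -0.23, 0.24 and 0.42, so they were not taken to pair libraries.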

Additional observations from a re-analysis of the deposited data

Results flagged for a closer look

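At 5 of 57 peaks examined, 1 FP library stood far from the other 3 by Dixon's test, and chance gives about 1 in 20 such groups. FP 4 was high at Mrpl32 (2.38 CPM). FP 1 was high at the Bcl2 intron peak (7.82 CPM). FP 2, of low total, was low at Cdk6 (5.30 CPM) and Lta (2.605 CPM) and high at Themis (4.37 CPM); all are on the scaling of the 7 libraries.

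The FP effect differed between 168 h and 16 h, by the test of the difference itself, at Gad2 (-3.46, log2) and at Wwp1 (-3.17). These peaks were chosen by their p with FP at 16 h, whose libraries enter the difference, and both had also risen with IL2 at 0.75 h.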

How the results depend on the processing

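The 0 calls at 168 h became 11 with DESeq2, 10 with the log2 library total as a covariate and, in fits chosen after seeing the data, 7 with the set by total as a block and 9 in the 4 libraries of high total, where PBS 4 stands alone and is assumed to vary like the FP libraries. They stayed at 0 under every omission of 1 library. Replicate numbers shared by the agents were not taken to pair libraries: in deviations from the group means, PBS 2 and PBS 4 correlated best with the FP library of their own number and PBS 1 did not. The replicate block gave 0 calls, the block with log2 total 32 and the block with GC and width offsets 1. Against 16 h the 22 calls became 13 with library totals as scaling, 113 with the covariate, 40 without PBS 1 and FP 2 together and 12 to 48 without 1 library. Against 0.75 h the 1 call became 2 with no filter, 23 with the covariate, 8 without PBS 1 and FP 2 together and 0 to 3 without 1 library. The causes were not tested.

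Some early peaks changed sign. Most of these were near 0 at 168 h in the main fit, but Lef1 was at 0.48 ± 0.84, Lta at 0.44 ± 0.44 and Foxp3 at 0.29 ± 0.31. With the covariate, Cdk6 was at -0.025, Foxp3 at -0.12, Nrp1 at -0.16, Ccr7 at -0.23 and Lta at -0.11. With the set as a block they were at -0.0079, -0.081, -0.077, -0.20 and -0.0080. With the replicate block, Cdk6 was at -0.031, Gad2 at 0.18, Ccr7 at -0.24 and Wwp1 at 0.12. With the block and log2 total, Cdk6 was at -0.17, Foxp3 at -0.014, Nrp1 at -0.39, Lef1 at -0.32, Ccr7 at -1.19 and Lta at -0.29. With the block and GC offsets, Gad2 was at 0.32, Ccr7 at -0.33 and Wwp1 at 0.30. With GC offsets alone, Gad2 was at 0.090, Ikzf2 at 0.18, Ccr7 at -0.039 and Wwp1 at 0.11. With voom, Cdk6 was at -0.033, Nfkb1 at 0.10, Il2ra at 0.92, Ccr7 at -0.19 and Wwp1 at 0.0032. Nrp1 was at -0.011 with library totals as scaling, -0.050 with all 31 libraries, -0.69 in the 4 libraries of high total and -0.59 without PBS 1 and FP 2 together. In the 4 libraries of high total Hbb-bt was at 0.0043. Without PBS 1 and FP 2 together Il2ra was at 0.35, and the Il2ra difference from 16 h at 0.023. Hbb-bt is an erythroid gene and not one of the early loci, and its peak was at -1.17 ± 0.60 in the main fit. Cdk6 was at -0.086 with mean log2 CPM of at least 1, and Gad2 at 0.14 with libraries thinned to the lowest total.

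Without 1 library, Cdk6 ranged from -0.11 to 0.19, Gad2 from -0.31 to 0.19, Wwp1 from -0.25 to 0.31, Nfkb1 from -0.37 to 0.18, Il2ra from -0.52 to 0.27, Ikzf2 from -0.49 to 0.10, Nrp1 from -0.45 to 0.54, Ccr7 from -0.57 to 0.40, Lef1 from -0.0016 to 1.52, and the Lta difference from 16 h from -0.68 to 0.017. Of the other comparisons with an alternative, 1212 kept direction and side of the threshold, 21 passed it and 1, Wwp1 without PBS 4, no longer did. Peaks under about 1 CPM rest on few counts in PBS 1, the library of lowest total.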
